A study of Drosophila melanogaster with 6 samples.

Results

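The transcriptome of the eye-antennal disc without the Tet transgene was described from the 3 control libraries among the 6 libraries of the series, chosen by their sample labels alone. The study overexpressed the fly Tet enzyme with the ey-Gal4 driver. The 3 libraries with that transgene were not used here. Each control library held RNA of eye-antennal discs from Drosophila melanogaster larvae in the third instar, of the genotype ey-Gal4 with W1118, and experiments were kept at 25 °C. The controls therefore carried the Gal4 driver of the eye field but no UAS transgene named in the labels, and they are a driver control and not a wild-type stock. The labels' protocols call the 3 samples biological replicates; the number of larvae per sample and their sex were not given in the sources used here. Whole-disc RNA was extracted with TRI Reagent and made into stranded total RNA libraries. Because each sample is bulk tissue, fewer cells of a type and less RNA per cell cannot be told apart in any value below.

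The eye-antennal disc is a folded epithelial sac that forms the compound eye, the antenna, the maxillary palp and much of the head capsule of the adult. In its eye part the Pax6 proteins Eyeless and Twin of eyeless act at the head of the retinal determination network, with the homeodomain protein Sine oculis, the phosphatase and coactivator Eyes absent and the nuclear protein Dachshund. During the third instar the morphogenetic furrow crosses the eye field from posterior to anterior, leaving proneural clusters, photoreceptor recruitment and then cone cells behind it, while cells ahead of it still divide.

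The 3 control libraries held 20242356, 19353993 and 18306991 counted read pairs over 17609 gene symbols, of which 4538 had no control count. Levels are given in TPM, which divides each deposited count by the exonic length of its gene and scales every library to the same total, so that genes of different length can be set side by side. At 1 TPM or more in every library stood 8271 genes, among them 7755 of 13948 protein-coding genes (55.6%). At 10 TPM or more in every library there were 5959 genes, at 100 TPM 938 genes and at 1000 TPM 114 genes. The median level of the 8271 genes was 26.4 TPM, and every list below is read against that median. The 2 are unlike sets, because list medians run over all members, also those below 1 TPM. Over all 13948 protein-coding genes, expressed or not, the median was 4.44 TPM. A count of read pairs is not a count of molecules, and limits from counts cover counting error only.

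A few abundant RNAs made up much of the total. The highest single RNA was snRNA:7SK, the RNA that holds the elongation factor P-TEFb inactive, at 38757, 63539 and 54126 TPM in libraries 1, 2 and 3. The 10 highest genes took 17.6% ± 1.44 (SD, n = 3) of all TPM, the 100 highest 53.9% ± 6.02 and the 1000 highest 78.1% ± 4.12. RNAs of RNA processing machines stood beside 7SK: RNaseMRP:RNA, which cuts precursor ribosomal RNA, at a mean of 20472 TPM, and RNaseP:RNA, which trims precursor tRNA, at 11313 TPM. The long noncoding RNA of highest level, lncRNA:CR34335, stood at 16293, 12196 and 14573 TPM. Protein-coding genes took 83.4% ± 0.94 of all TPM.

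The other noncoding RNAs of high level were of known small RNA classes, long noncoding RNAs and pseudogenes of ribosomal RNA. Of the spliceosomal RNAs, those of the minor spliceosome were highest among the loci counted, with snRNA:U11 at 2356, 1858 and 1802 TPM and snRNA:U12 at 714, 659 and 509.9 TPM. The U4 and U1 loci snRNA:U4:39B and snRNA:U1:95Cc stood at means of 221 and 96.3 TPM. By library they stood at 470.1, 94.2 and 99.2 TPM and at 150.2, 56.4 and 82.4 TPM, both highest in library 1. Other loci of both RNAs are near-identical, and pairs that map to several of them were not counted. These levels can be too low, so RNAs of the minor and the major spliceosome cannot be ranked against each other here. The snoRNA class was led by snoRNA:Tudor-SN-a at 6101, 3783 and 5457 TPM and scaRNA:MeU5-C46 at 3364, 5047 and 4449 TPM. Next were snoRNA:Psi18S-176, snoRNA:Psi18S-1820 and snoRNA:Psi28S-291 at means of 669, 470.2 and 446 TPM, RNAs that guide pseudouridine formation in ribosomal RNA. All of these were highest in library 1, with 1238, 271.6 and 496.4 TPM by library for snoRNA:Psi18S-176. After lncRNA:CR34335, the long noncoding RNAs lncRNA:CR40469, lncRNA:CR33938, lncRNA:CR42491 and roX2 stood at means of 4658, 3991, 398 and 374 TPM. Of these, lncRNA:CR42491 shares 50.5% of its exonic bases with another gene on its strand, so its level is uncertain. The ribosomal RNA pseudogene 28SrRNA-Psi:CR45859 ranked 6th of all genes, at 10224, 9501 and 13410.1 TPM. Its sequence is close to that of ribosomal RNA, whose 19 own rows were listed at 0, so its level is uncertain.

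Among the gene families counted, ribosomal proteins took the largest share of TPM. Of 88 cytosolic ribosomal protein genes, 84 stood at 1 TPM or more, with a median of 3878 TPM, and together they took 27.5, 38.7 and 37.1% of all TPM in libraries 1, 2 and 3 (34.4% ± 6.07). Library 1 had the lowest share. The highest was RpL41, at 23652, 38885 and 30924 TPM, followed by RpS27A at 7478, 10873 and 9583 TPM and RpL31 at 4663, 11461 and 10129 TPM. Copies of 1 ribosomal protein gene differed in how evenly they were expressed. RpS5a stood at a mean of 4491 TPM against 4.88 TPM for RpS5b, RpS19a at 1796 against 7.34 TPM for RpS19b, and RpL22 at 1085 against 2.36 TPM for RpL22-like. RpL10Ab stood at 4300.0 TPM, while RpL10Aa, RpL37b and RpS28a had no control count. Other copies were closer, with RpS15Aa at 4275 against 379 TPM for RpS15Ab, RpS14a at 2308 against 743 TPM for RpS14b, and RpL34b at 644 against 343 TPM for RpL34a. Pairs of reads that map to several places were not counted, which limits these values for near-identical copies.

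Outside the ribosomal proteins, the 12 highest coding genes served translation, protein folding, the cytoskeleton, nucleotide metabolism and chromatin. The highest was eEF1alpha1, the factor that brings aminoacyl-tRNA to the ribosome, at 9653, 7766 and 8489 TPM. The small heat shock protein gene Hsp23 followed at 5736, 8194 and 6669 TPM, and eEF5, the hypusine-bearing elongation factor, at 5652, 6860 and 7088 TPM. The order of these genes changed between libraries: Hsp23 stood above eEF1alpha1 in library 2 and below it in libraries 1 and 3. Next came the tubulins alphaTub84B at a mean of 4197 TPM and betaTub56D at 3127 TPM, the nucleoside diphosphate kinase awd at 3344 TPM, the cofilin tsr at 3046 TPM, the histone gene His4r at 3034 TPM (2251, 3620 and 3233 by library), eEF2 at 2758 TPM, the constitutive chaperone Hsc70-4 at 2689 TPM and the cyclophilins CG2852 and Cyp1 at 3470 and 2338 TPM. All 16 translation factors passed 1 TPM, with a median of 521.8 TPM. The lowest of them, eIF5 at 4.47 TPM, shares 80.8% of its exonic bases with another gene on its strand, where pairs were not counted.

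**Figure D1:**
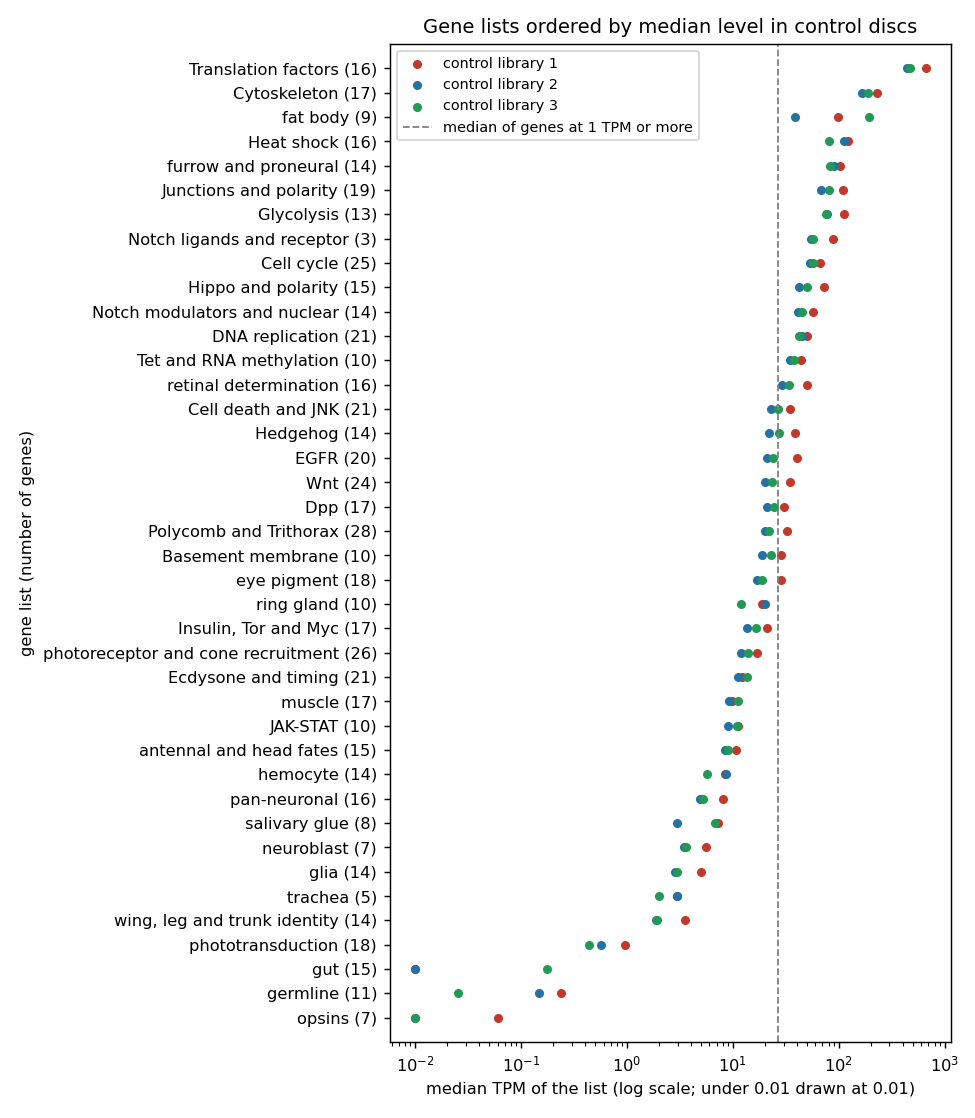
Median TPM of each gene list (log axis) in each of the 3 control libraries, with the number of genes in parentheses and a dashed line at 26.4 TPM, the median of the 8271 genes at 1 TPM or more. The sex, Y chromosome and reference gene lists are not drawn. Of the lists drawn, translation factors and cytoskeleton lie at the top and the gut, germline and opsin lists at the bottom, and the fat body medians run from 38.4 to 192 TPM.

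All 16 retinal determination genes were present at 1 TPM or more in every library, with a median of 37.4 TPM, at the 62.0th percentile of the 8271 genes. The highest was eya, on 2L at 6527447 to 6546976 (dm6), at 222, 149 and 140.3 TPM (170.3 ± 44.6, SD, n = 3). Its partner so, on 2R at 7419350 to 7434872, stood at 64.3, 42.2 and 47.5 TPM. The ratio of eya to so was 3.45, 3.53 and 2.95 within the libraries. Eya exceeded so in each library.

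The Pax6 pair lies on chromosome 4. The gene toy, at 989725 to 1007922, stood at 199.7, 134 and 134 TPM and ey, at 697689 to 721173, at 56.7, 36.2 and 43.2 TPM. Twin of eyeless is known to act upstream of eyeless, and in these discs its RNA was 3.45 ± 0.30 times as abundant per length. The other Pax pair, eyg and toe, which promote growth of the eye field, stood at means of 20.6 and 6.06 TPM. Their ratio was 3.35 ± 0.38, so in both Pax pairs 1 gene was the higher in all 3 libraries. The nuclear factor dac stood at 112, 65.7 and 62.4 TPM and the homeodomain gene Optix at 17.5, 11.8 and 10.5 TPM.

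Genes that hold cells in the progenitor state ahead of the furrow spanned a similar range. The homeodomain cofactor exd stood at 221, 139.6 and 142 TPM and its partner hth at 58.0, 42.4 and 47.0 TPM. The ratio of exd to hth, 3.37 with the exonic length of each gene, was 2.11 when the longest transcript was taken as the length. The zinc finger genes tsh and tio stood at means of 18.2 and 4.76 TPM. The kinase gene nmo stood at 23.3, 18.0 and 24.2 TPM, and the LIM homeodomain gene Lim1, which acts in the antennal and head field, at 8.05, 6.34 and 6.46 TPM. Library 1 was the highest for 14 of the 16 genes, all but nmo and tio, and over all 8271 genes it was the highest for 75.5%.

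**Figure D2:**
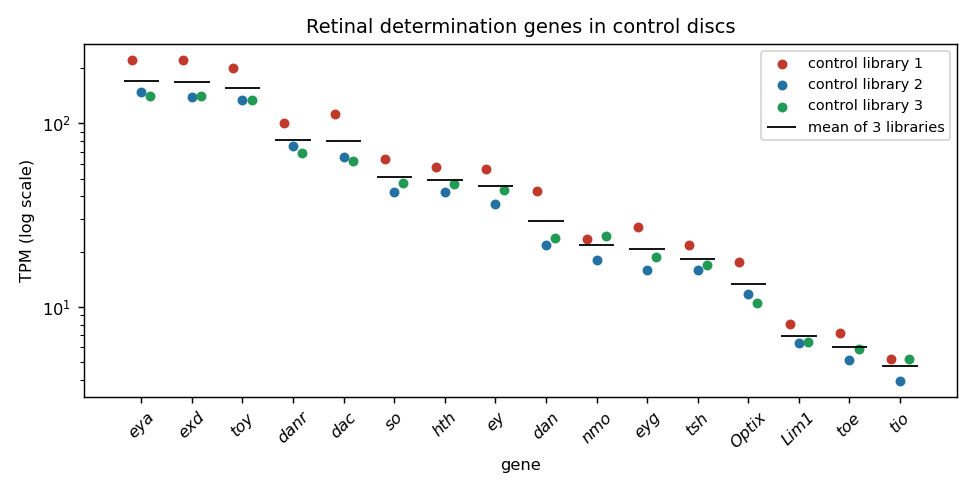
TPM (log axis) of the 16 retinal determination genes in each control library, with a bar at the mean of the 3. The genes run from eya at a mean of 170.3 TPM to tio at 4.76 TPM, and library 1 lies above the other libraries for all but nmo and tio.

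Genes of the morphogenetic furrow stood higher than the network genes as a list: all 14 passed 1 TPM, with a median of 93.6 TPM. The proneural gene ato, which selects the founding R8 photoreceptor and lies on 3R at 8278052 to 8279274, stood at 112, 109.8 and 100.5 TPM. The helix-loop-helix antagonist emc, which holds proneural proteins inactive, was the highest of the list at 349, 194 and 193 TPM. Notch targets of the Enhancer of split complex followed, with E(spl)mdelta-HLH at 166, 149.7 and 144 TPM and E(spl)m4-BFM at 134, 121 and 129 TPM. Downstream in the R8 choice, sens, which maintains R8 fate, was the lowest at 17.9, 9.82 and 11.7 TPM, and the R2 and R5 gene ro stood at 27.6, 30.03 and 26.3 TPM. Every listed furrow gene was thus present, over a range of 13.1 to 245.5 TPM in their means.

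Of 26 genes of photoreceptor and cone recruitment, 24 passed 1 TPM, with a median of 14.1 TPM. The highest was the rhomboid protease ru, which releases EGFR ligands, at 119, 112 and 111 TPM. The photoreceptor transcription factor gl stood at 86.7, 58.0 and 71.0 TPM and sev, the receptor that specifies R7, at 70.5, 46.2 and 50.4 TPM. The ligand of Sevenless, boss, made in R8, stood far lower at 4.36, 2.03 and 2.63 TPM. Among factors of later subtypes, lz stood at a mean of 26.9 TPM, B-H1 and B-H2 at 20.5 and 29.8 TPM, svp at 9.28 TPM, the cone gene ct at 8.40 TPM, pros of R7 and cone cells at 2.07 TPM and run of R7 and R8 at 1.60 TPM. Pph13, a factor of late photoreceptor genes, stood at 1.24, 0.687 and 0.722 TPM. The remaining gene below the threshold, seq, was listed at 0, and all of its exonic bases are shared with another gene on its strand.

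Markers of the antennal and head parts of the disc were also present. Of 15 genes, 14 passed 1 TPM, with a median of 9.35 TPM. The list shares danr, dan and Lim1 with the retinal determination list. It shares oc, salm and ct with the list of photoreceptor and cone recruitment. The related factors danr and dan, both on 3R, stood at 101, 75.4 and 68.6 TPM and at 42.8, 21.6 and 23.8 TPM. The appendage selector Dll stood at 46.5, 40.4 and 42.7 TPM and Dfd, the Hox gene of the maxillary region, at 24.1, 14.9 and 13.9 TPM. The antennal determinant ss stood at a mean of 8.90 TPM, the antennal arista and tarsus gene al at 9.05 TPM and the head gap gene ems at 9.35 TPM. The labial Hox gene lab was near the bottom at 3.83, 1.30 and 2.06 TPM, and hbn did not reach 1 TPM. Genes of the eye lists and antennal or head genes outside them, such as Dll, ss, al and ems, both appear in the RNA of these whole discs.

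Neuronal genes were detected, mostly below the 26.4 TPM median of genes at 1 TPM or more. Of 16 pan-neuronal genes, 13 passed 1 TPM, with a median of 5.96 TPM. The amyloid precursor homologue Appl was the highest at 55.1, 40.04 and 48.3 TPM, and futsch, a microtubule-associated protein of axons, stood at 29.3, 19.3 and 22.0 TPM. The RNA-binding protein gene elav, which marks differentiating neurons, stood at 13.5, 6.52 and 7.49 TPM. Genes of synaptic release were lower, with nSyb at a mean of 3.53 TPM, Snap25 at 3.17 TPM and Syt1 at 3.02 TPM. Of 14 glial genes 9 passed, against 55.6% of all coding genes, and the defining glial factor repo stood at 12.7, 8.29 and 9.32 TPM.

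Most genes of the working retina stood below 1 TPM. Of 18 phototransduction genes 7 passed 1 TPM, led by inaC (29.0, 13.8 and 16.5 TPM), a protein kinase C, and norpA (17.4, 11.6 and 13.2 TPM), the phospholipase C of the light response. The channel genes trp and trpl stood at means of 0.013 and 0.024 TPM. Of 7 opsin genes 1 passed: Rh6, on 3R at 15483158 to 15484699, stood at 3.15, 1.30 and 1.39 TPM. Rh5 stood at 1.02, 1.30 and 0.864 TPM. Both are known from the larval photoreceptors, whose nerve runs along the eye disc. The major adult opsin ninaE had no count in the 3 libraries, which at 3 counts over them together allows up to 0.047 TPM, and Rh2 and Rh3 had none either (limits of 0.054 and 0.053 TPM).

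Of 18 eye pigment genes 14 passed 1 TPM, with a median of 21.5 TPM. The pteridine enzyme gene pr stood at 81.9, 68.3 and 67.9 TPM and the AP-3 and trafficking genes or, cm and lt at means of 66.3, 47.6 and 42.6 TPM, which serve vesicle transport in other cells too. The pigment transporter gene w, on X at 2790599 to 2796466, stood at 46.9, 27.3 and 28.3 TPM. The label names the W1118 background, a white-eyed stock that lacks w function, and w is also the usual marker of transgenes such as Gal4 drivers. Counts per gene do not part the resident gene from a marker copy. Its ommochrome partner st stood at 3.94, 1.20 and 1.58 TPM and the pteridine partner bw at a mean of 0.0092 TPM.

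Most of the listed signalling genes were at 1 TPM or more, against 55.6% of all coding genes. For Notch, the receptor N stood at 242, 128 and 157 TPM, with the ligands Dl at 88.7, 55.1 and 57.1 TPM and Ser at 60.0, 36.6 and 40.4 TPM. The ratio of Dl to Ser was 1.48, 1.51 and 1.41 by library. All 14 Notch modulators and nuclear factors passed 1 TPM, led by O-fut1 at a mean of 339 TPM and the glycosyltransferase fng at 189 TPM, both of which act on the Notch receptor, while the DNA-binding factor Su(H) was the lowest at 15.7 TPM. All 14 Hedgehog genes passed. The ligand hh stood at 48.0, 31.5 and 34.3 TPM, its receptor ptc, which is also a target, at 22.4, 22.9 and 27.2 TPM, and the transcription factor ci at 260, 108 and 129 TPM. Library 1 was over 2-fold higher than the others for ci and not for ptc. Of these, ci lies on chromosome 4, whose coding genes had medians of 91.2, 44.3 and 51.5 TPM in libraries 1, 2 and 3. The part of that shift in ci was not tested.

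Among secreted ligands of the other pathways, spi of the EGFR pathway stood highest, at 306, 179.9 and 210.3 TPM. It was 13.9 ± 1.53 times its relative Krn, and grk, the ligand of the ovary, stood at 0.44 TPM. The BMP ligand gbb stood at 243, 186 and 192 TPM against 19.4, 10.97 and 11.04 TPM for dpp, which is known to be made in the furrow. In the Wnt list wg stood at 51.8, 34.1 and 35.1 TPM, Wnt6 at 23.3, 13.6 and 13.7 TPM and wntD at 0. The JAK-STAT ligands were near or below the threshold, with upd1 at 1.55, 0.936 and 0.749 TPM and upd3 at a mean of 0.205 TPM, while the receptor dome stood at 30.8 TPM and Stat92E at 66.6 TPM. Levels in whole-disc RNA do not give the local amount of a ligand made in few cells.

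Counted by list, 22 of 24 Wnt genes passed 1 TPM (median 25.3 TPM), 15 of 17 Dpp genes (25.2 TPM), 19 of 20 EGFR genes (28.2 TPM), 7 of 10 JAK-STAT genes (10.3 TPM) and 15 of 15 Hippo and polarity genes (58.7 TPM). These medians stand near the 26.4 TPM of all genes at 1 TPM or more, except for the lower JAK-STAT and the higher Hippo list. The highest member of the Wnt list was arm, the fly beta-catenin, which also serves cell junctions, at 570.0, 328 and 358 TPM, and that of the Hippo list was the caspase inhibitor Diap1, a Hippo target, at 279, 183 and 203 TPM. In the Insulin, Tor and Myc list 16 of 17 passed, from Rheb, the GTPase that activates Tor, at 72.1 TPM down to the relaxin receptor Lgr3 at 0.024 TPM.

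**Figure D3:**
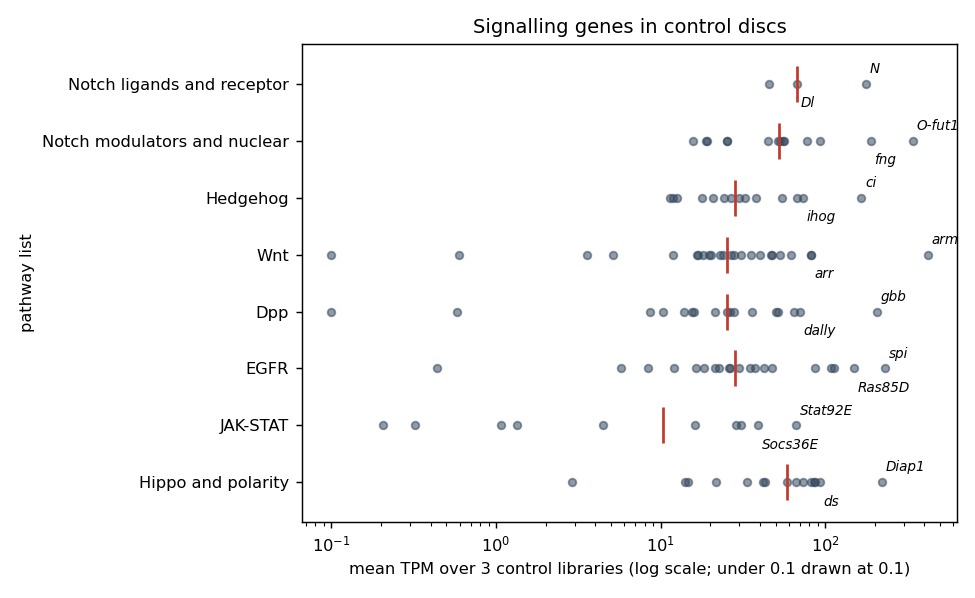
Mean TPM over the 3 control libraries (log axis) of each gene in 8 pathway lists, with a vertical bar at the list's median and the 2 highest genes named. Most genes lie between 10 and 100 TPM, arm and O-fut1 lie above 300 TPM, and the genes below 1 TPM are in the Wnt, Dpp, EGFR and JAK-STAT lists.

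The listed genes of cell division and of epithelial junctions were all at 1 TPM or more, against 55.6% of all coding genes. All 25 cell cycle genes passed 1 TPM, with a median of 62.2 TPM, led by the mitotic kinase Cdk1 at 382, 289.6 and 297 TPM and CycA at 279.6, 146 and 143 TPM. The Cdk inhibitor dap stood at 160.0, 90.1 and 95.1 TPM and the phosphatase stg, which drives entry into mitosis, at 94.4, 58.6 and 64.2 TPM. All 21 replication genes passed (median 43.9 TPM), led by PCNA at 164, 155 and 161 TPM. All 19 junction and polarity genes passed, with a median of 85.4 TPM, among them the E-cadherin gene shg at 197, 101 and 108 TPM and the septate junction claudin kune at 381, 312 and 357 TPM.

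The listed chromatin and RNA methylation factors were all at 1 TPM or more, against 55.6% of all coding genes. All 28 Polycomb and Trithorax genes passed 1 TPM, with a median of 24.4 TPM, from the DNA-binding Polycomb factor pho at 152, 72.1 and 78.1 TPM to Su(z)2 at 4.98, 4.41 and 3.94 TPM. Tet itself, on 3L at 2786207 to 2879158, stood at 39.4, 30.7 and 36.8 TPM (35.6 ± 4.45), at the 60.3th percentile. The 10 genes of the Tet and RNA methylation list all passed, led by the readers of methylated RNA Ythdc1 and Ythdf at means of 67.6 and 59.8 TPM, with Mt2, the tRNA methyltransferase, lowest at 12.8 TPM.

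Ecdysone, the moulting hormone, times the furrow and the end of larval life. Its receptor subunits EcR and usp stood at means of 20.2 and 31.0 TPM, in a ratio of usp to EcR of 1.53 ± 0.085. ImpE2, an ecdysone-inducible gene of imaginal discs on 3L at 3510974 to 3512681, was the highest of the list at 2476, 1327 and 1410.1 TPM, and it ranked 103rd of all genes. The early gene br stood at 52.97, 49.0 and 58.0 TPM, Eip74EF at 7.75, 6.06 and 6.52 TPM and the prepupal gene ftz-f1 at 1.80, 2.195 and 1.91 TPM. Both br and Eip74EF stood above ftz-f1 in every library. Of the 21 genes 18 passed 1 TPM, and the larval timing gene lin-28 was listed at 0.

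The heat shock list reached a median of 96.4 TPM, with 15 of 16 genes at 1 TPM or more and Hsp22 listed at 0, all of whose exonic bases are shared with another gene on its strand. Hsp26 stood at 1098, 2644 and 1866 TPM and Hsp68 at 243, 878 and 509 TPM, both highest in library 2 and lowest in library 1. The 6 listed Hsp70 copies stood at means of 19.1 to 91.3 TPM, and because they are near-identical their split is uncertain. In the cell death and JNK list 19 of 21 genes passed, with the caspases Dronc and Drice at 87.5 and 78.8 TPM, rpr at 12.6 TPM and hid at 9.92 TPM, and with the death genes grim and skl at 0.679 and 0.691 TPM.

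Of 14 genes of wing, leg and trunk identity 8 passed 1 TPM, a share near the 55.6% of all coding genes. The trunk Hox genes stood at or near 0. Ubx had no control count (limit 0.017 TPM), abd-A and Abd-B stood at means of 0.0092 and 0.0019 TPM, and vg, the wing selector, at 0.583 TPM. Antp stood at 0.075 TPM, although 50.1% of its exonic bases are shared with another gene on its strand. Present were the Dorsocross genes Doc1, Doc2 and Doc3 (15.2, 16.5 and 12.9 TPM), the GATA factor gene pnr (10.6 TPM), the zinc finger gene rn (12.1 TPM) and the LIM homeodomain genes tup and ap (9.73 and 2.73 TPM). The wing gene nub stood at 2.53, 1.93 and 1.90 TPM.

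The label of eye-antennal disc tissue was met by these markers, and genes known as markers of attached or neighbouring tissues were detected beside them. Expression in the disc itself and RNA of those tissues cannot be told apart in these counts. The ring gland list, enzymes that make ecdysone from sterols and endocrine genes, had 9 of 10 genes at 1 TPM or more and a summed level of 446, 461 and 263 TPM. Its highest gene, spok, stood at 182, 153 and 82.6 TPM, and the hormone gene Akh at 10.96, 20.05 and 5.21 TPM. Library 3 had the lowest sum. The fat body list had 8 of 9 genes at 1 TPM or more, none at 0, and a summed level of 1228, 308 and 1399 TPM, so that library 2 stood 4.55-fold below library 3. The storage protein gene Lsp2 stood at 283, 56.4 and 298 TPM and Fbp1, the receptor of storage proteins, at 85.4, 25.0 and 192 TPM.

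The salivary glue list had 5 of 8 genes at 1 TPM or more, a share near the 55.6% of all coding genes. Its sum followed that of the fat body list, at 169.6, 70.3 and 208 TPM. Hemocyte genes (12 of 14; 249, 225 and 210.5 TPM) and muscle genes (15 of 17; 261, 234 and 228 TPM) were more even between libraries. Of the defining hemocyte genes, Hml stood at 14.5, 12.7 and 15.4 TPM and srp at 0.469, 0.595 and 0.544 TPM. The gut list had 0 of 15 genes at 1 TPM or more in every library and summed to 7.64, 2.75 and 7.71 TPM, with the amylase genes Amy-p and Amy-d among the 4 genes without a count. The germline list had 2 of 11, with vas at a mean of 0.329 TPM. How far RNA of these tissues contributed to any gene above was not tested.

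**Figure D4:**
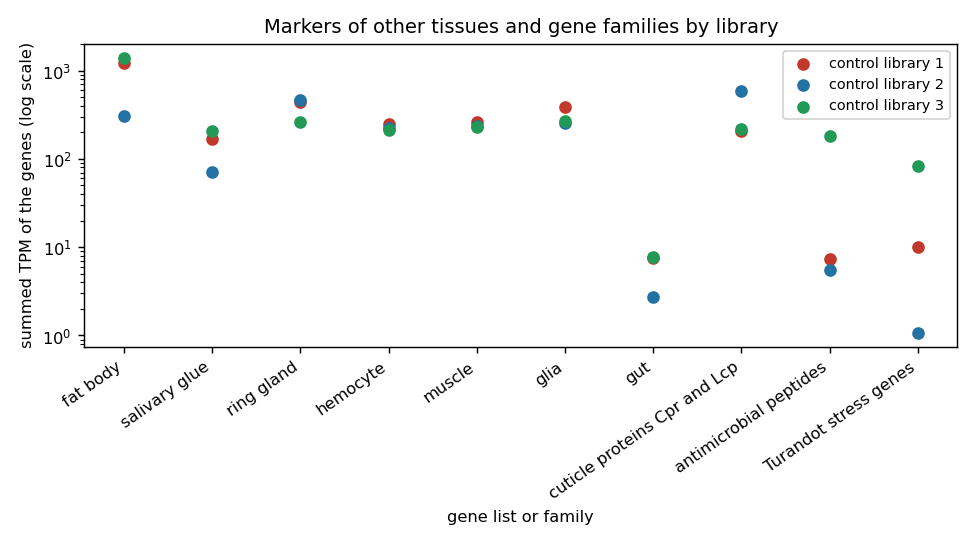
Summed TPM (log axis) of marker lists of other tissues and of 3 gene families in each control library. Library 2 is the lowest for fat body, glue and gut and the highest for cuticle genes (581 TPM against 207 and 220.5), while library 3 is the highest for antimicrobial peptides (182 TPM against 7.33 and 5.47) and Turandot genes (83.8 TPM against 10.02 and 1.06).

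RNA of both sexes' regulators was present. The roX RNAs, which coat the male X chromosome, stood at 292, 191 and 239 TPM for roX1 and at 435, 238 and 448 TPM for roX2. Sxl, the switch gene of female development, stood at 34.2, 20.5 and 23.8 TPM, a count that does not part male from female transcripts. None of the 23 coding genes of the Y chromosome reached 1 TPM. The 1291 coding genes of X at 1 TPM or more had a median of 24.3 TPM, against 27.9 TPM for the 6395 on chromosomes 2 and 3. Chromosome 4, which carries toy and ey, had 69 of 80 coding genes at 1 TPM or more, with a median of 65.5 TPM. Their median log2 ratio of library 1 to the mean of libraries 2 and 3 was 0.93. It was 0.46 for the genes on chromosomes 2 and 3.

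The 3 libraries ranked genes alike, and library 1 stood apart from the other 2. Over the 8271 genes, which are not independent replicates, Pearson's r of log2 TPM was 0.958 between libraries 1 and 2, 0.970 between 1 and 3 and 0.983 between 2 and 3. The counts differed between each pair by more than sampling noise, so the 3 were counted as separate libraries. Genes that lay over 2-fold from the median ratio numbered 681, 361 and 239 for the same pairs.

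The difference of library 1 moved with gene length. Its median log2 ratio of TPM to the mean of libraries 2 and 3 was -0.41 for coding genes of up to 500 exonic bases, 0.18 for 1000 to 1500 bases, 0.60 for 2000 to 3000 bases and 0.57 for over 5000 bases. Over 7755 coding genes, Spearman's rho of the log2 ratio with length was 0.547 against library 2 and 0.466 against library 3, and it was -0.321 for library 2 against library 3. The ribosomal protein genes, short and abundant, had a median log2 ratio of -0.42. The median log2 ratio over all 8271 genes was 0.47, so the higher library 1 values given above for single genes are to be read beside that shift. Its part in the difference of any single gene was not tested.

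**Figure D5:**
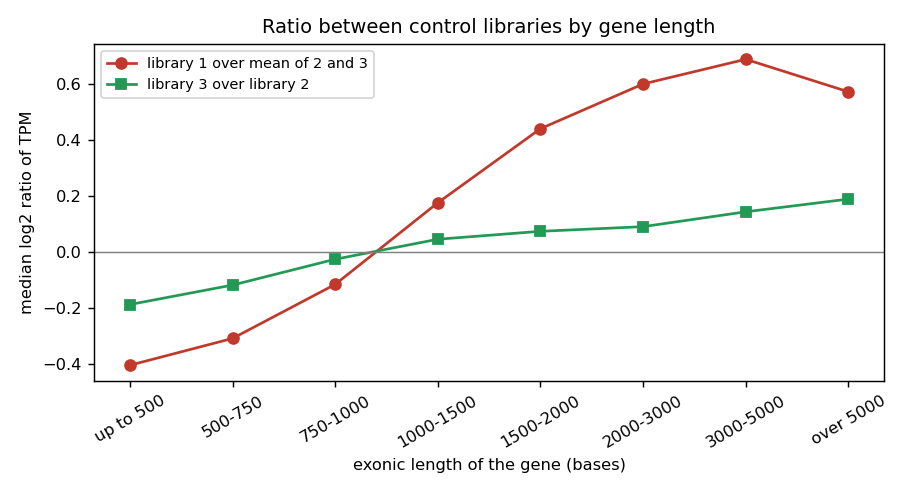
Median log2 ratio of TPM between control libraries (vertical axis) for coding genes at 1 TPM or more in 8 classes of exonic length (horizontal axis). The ratio of library 1 to the mean of libraries 2 and 3 rises from -0.41 to 0.69 and ends at 0.57, and the ratio of library 3 to library 2 rises from -0.19 to 0.19.

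After scaling of the libraries by TMM, which sets most genes level, the median coefficient of variation (CV) of a gene's CPM, the count scaled by library size, was 14.7%, against 23.6% for unscaled TPM. The common biological CV estimated by edgeR over 8775 genes was 21.4%. The CV fell from a median of 22.1% for coding genes at 1 to 5 TPM to 12.6% at 10 to 30 TPM and rose to 30.2% at 1000 TPM or more. The 111 genes of that highest class had a median length of 1013 bases. By length, the median CV was 38.1% up to 500 bases and 10.7% over 5000 bases. Level and length were not parted. Without library 1 the median CV over genes at 1 TPM or more was 7.42%. The retinal determination genes had a median CV of 7.99%, with so at 3.41%, tsh at 1.84% and dan the highest at 18.7%.

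The 6 least variable genes are named by rule. Sec23, a coat protein of vesicles that leave the endoplasmic reticulum, had a CV of 0.15% after TMM scaling. Its unscaled levels of 162, 113 and 121 TPM had a CV of 19.9%. The Polycomb-like gene Pcl (0.20%), the mannosyltransferase gene tw (0.24%), a6 (0.29%), the nuclear pore gene Nup153 (0.37%) and ebi (0.38%) followed. They were picked as the lowest CVs of 6272 genes over 3 libraries and are given as a description.

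The 12 most variable genes were each highest in library 2 or in library 3. Among 6272 genes with a mean of 10 TPM or more and at least 300 bases, 65 had a CV over 50%. Of these 65, 42 were highest in library 2, 19 in library 3 and 4 in library 1, and 44 were lowest in library 1. The filter used the mean, so a gene could pass through a single high library, as Cpr11B did. High CVs are thus partly built in by the filter, and the split by library is a description only. Of the 12, 9 were highest in library 2, among them 4 cuticle protein genes: Lcp4 stood at 10.1, 156 and 7.72 TPM, Lcp65Ab1 at 2.34, 40.5 and 1.83 TPM, Lcp9 at 1.02, 33.7 and 2.11 TPM and Cpr11B at 0, 40.9 and 0.738 TPM. With them were CG33333 (0.14, 108 and 2.88 TPM), CG15353 (8.05, 117 and 7.76 TPM), CG13403 (0.499, 98.9 and 0.819 TPM), CG34296 (6.71, 50.5 and 7.55 TPM) and the odorant binding protein gene Obp56d (9.34, 54.4 and 11.7 TPM). The 85 cuticle genes of the Cpr and Lcp families summed to 207, 581 and 220.5 TPM.

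The other 3 of the 12 were highest in library 3. The diptericins DptA and DptB, antibacterial peptides of the Imd pathway and neighbours on 2R, stood at 0, 1.23 and 65.0 TPM and at 0, 0 and 55.3 TPM. TotA, a secreted stress protein of the JAK-STAT response, stood at 9.87, 0.94 and 83.3 TPM. None of the 20 antimicrobial peptide genes reached 1 TPM in every library. Their summed level of 7.33, 5.47 and 182 TPM was highest in library 3, as was the fat body sum. The part of fat body RNA in it was not tested. The fat body sum of library 1 was 1228 TPM, near that of library 3, and its antimicrobial sum was 7.33 TPM.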

How the data were processed

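The authors deposited unnormalized read-pair counts over exons, summed by gene symbol with featureCounts 2.0.6 (strand setting 2) on FlyBase release 6.45 of dm6, per the file headers. The submitters' processing notes also name FastQC 0.12.1 and HISAT2 2.2.0. The counter by default discards pairs with several alignments or in exons of more than 1 gene: 593 genes share at least 50% of their exonic bases on one strand, and 494 of them had no control count. Whether ribosomal RNA was depleted was not given in the sources used here. All 37 rows of the mitochondrial genome and 19 rows of the ribosomal DNA unit were listed at 0 and are not read as absent.

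TPM was computed here per library from the counts and the table's length column. CPM, TMM factors (1.09, 0.947 and 0.966) and the biological CV came from edgeR 4.0.16 in R 4.3.3, and the functions were tested on simulated data. A count of 0 allows 3 counts over the 3 libraries together. Of the 17609 symbols, 17573 were matched to the reference annotation for gene type. No test between groups was made.

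The 43 gene lists (615 genes) were chosen, and their symbols respelled to the table, with earlier results of these data known. Genes were named from the 12 highest coding genes outside the ribosomal proteins, the 3 highest and 3 lowest ribosomal protein genes, all retinal determination genes, up to 4 highest and 2 lowest genes of each other list, the 12 most and 6 least variable genes and the 5 highest of each noncoding class; other genes were chosen after their values were seen. Coordinates are those of the count table.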

Additional observations from a re-analysis of the deposited data

How the results depend on the processing

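The number of genes at 1 TPM or more, the ribosomal protein share, the mitochondrially encoded share (listed at 0), the retinal determination median, the median CV and the biological CV were recomputed under other settings. Of 57 recomputed values, 50 stayed within the bound set for them and 7 moved. The bound was the SD between libraries for the shares and the retinal determination median, and 1.5 times for the gene count. For the CVs it was the SD of the values with each library left out. The mitochondrially encoded share, without counts, and the ribosomal share rescaled by TMM could not move. Neither could the retinal determination median over members at 1 TPM or more, because every member passed. With a library left out the gene count could only stay or rise. The bound of the CVs came from the same left-out values that it judged. The ribosomal protein share of 34.4% was 41.3% over protein-coding genes alone and 20.3% without length correction, and the retinal determination median was then 101 CPM in place of 37.4 TPM. That median was 26.9 TPM with 200 bases taken off each length and 44.95 TPM over protein-coding genes alone, both within its bound. The median over all genes was not recomputed under these settings. The median CV of 14.7% was 23.6% for unscaled TPM and 23.7% with no filter on low values. With each library left out in turn, the median CV ran from 7.42 to 15.4% and the biological CV from 14.5 to 25.8%, both lowest without library 1, while the genes at 1 TPM or more ran from 8365 to 8522, the ribosomal share from 32.3 to 37.9% and the retinal determination median from 31.2 to 41.6 TPM. The longest transcript as length and the omission of genes with overlapping exons were chosen after seeing the data, and they gave 8260 and 8235 genes. No paired analysis was possible because the values come from 1 group and no contrast was tested. Depth limits the genes near 1 TPM, and the length-related difference of library 1 limits comparisons of short with long genes.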

Other observations

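Chemosensory receptor genes, which serve neurons of the adult antenna and palps and of larval sense organs, were nearly all below 1 TPM in the discs. Of 59 odorant receptor genes 4 reached 1 TPM in every library, led by Or43b at 7.93, 6.26 and 8.07 TPM. Of 60 gustatory receptor genes 1 did, Gr61a at 5.56, 6.84 and 8.20 TPM, and of 60 ionotropic receptor genes 5 did, led by Ir76a at 9.70, 7.42 and 7.51 TPM. Of 51 odorant binding protein genes 9 passed, with a family median of 0.063 TPM, and Obp99a was the highest: it stood at 896, 1011 and 943 TPM. Obp99b stood at 300, 120.3 and 1070.3 TPM, highest in library 3.

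Families of enzymes and protein complexes covered a wide range. All 32 tRNA synthetase genes and all 8 subunit genes of the chaperonin CCT passed 1 TPM, with medians of 48.4 and 256 TPM, and 72 of 73 mitochondrial ribosomal protein genes passed with a median of 68.6 TPM. Of 48 proteasome subunit genes 36 passed, with a median of 202 TPM over all 48 and 253 TPM over the 36. Of 33 vacuolar ATPase subunit genes 19 passed, a share near the 55.6% of all coding genes. Their median was 13.5 TPM over all 33 and 77.15 TPM over the 19 that passed. Of 7 innexin genes, which form gap junctions, 3 passed: Inx3 at 680.5, 393 and 402 TPM, Inx2 at 436, 208 and 227 TPM and ogre at 147, 88.7 and 99.4 TPM. Of 111 replication-dependent histone genes 22 passed. Many are near-identical copies, and pairs with several alignments were not counted.

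The signal recognition particle RNA 7SLRNA:CR42652 stood at 20635, 624 and 5145 TPM, and its second copy 7SLRNA:CR32864 at 2642, 1631 and 2189 TPM. Among the pairs counted, the first differed far more between libraries than the second. Pairs that map to both copies were not counted, so their split is uncertain. The ratio of Gapdh2 to Gapdh1 was 2.41, 2.38 and 2.42 in libraries 1, 2 and 3.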
